A study of Danio rerio with 6 samples.

Results

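Müller glia (MG) of zebrafish carrying a mutation in mycb were compared with Wt MG after the same retinal injury, across every gene that was counted. Both groups were collected at 2 days post injury (dpi), with 2 libraries a side, and the comparison covers 20329 tested genes of the 23510 in the count data. Of these, 1668 genes were higher and 2483 were lower in the mutant. The genes that were lower included those for DNA replication, nucleotide synthesis, ribosome assembly, glial identity, extracellular matrix and the cytoskeleton, and the genes that were higher included those of rods and cones, histone methyltransferases and circadian clock factors.

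Mycb is a zebrafish member of the Myc family of basic helix-loop-helix leucine zipper transcription factors. Myc proteins bind DNA as dimers with Max, and are known for driving cell growth through ribosome synthesis, nucleotide synthesis and entry into the cell cycle. MG are the radial glia of the retina. In zebrafish they respond to injury by reprogramming to a progenitor-like state, dividing, and giving rise to new neurons, which mammalian MG do very rarely.

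The mutant fish (mycb-/-) carried gfap:GFP and a germline deletion within the second exon of mycb that shifts the reading frame. The deletion was identified by DNA sequencing. It was made with a pair of Cas9 guide RNAs that target this exon, shown here 5′ to 3′, with the 12 bases next to the PAM in capitals.
mycb guide RNA 1: ggggagcgGTTTCTCCGCAG
mycb guide RNA 2: gggaagggGTCTGACAGGGA
The Wt fish carried gfap:GFP alone, and both groups received needle pokes to the retina. The remaining group, uninjured Wt gfap:GFP MG with 2 libraries, is given beside the injured groups for the level of a gene without injury. There was no uninjured mutant group, so differences that the mutant had before the injury cannot be told apart from differences in its response. Fish were adults of both sexes, retinas were pooled before sorting, and GFP+ cells were purified by FACS into polyA libraries. The gfap promoter drives GFP in resting MG, activated MG and their progeny, and the sort therefore holds a mixture of these. Wherever a level differs between bulk libraries, fewer cells of a type and less RNA per cell cannot be told apart. Both injured Wt samples have the treatment label "none", against their titles and source names, which were followed.

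Libraries held 47088844 to 64353562 counts, with the mutant libraries at the lower end (47088844 and 49781576). The spread between 2 libraries, not the counting error, set the precision for most genes. A gene was called higher or lower by edgeR's quasi-likelihood test where its log2 fold change (mutant minus Wt) was beyond 0.5 in either direction with a Benjamini-Hochberg adjusted p no larger than 0.05. By this rule 20.4% of the genes tested were called, 8.21% higher in the mutant and 12.2% lower. These shares are the background for each count given for a list. They rise with the counts of a gene, as given below, so lists of well expressed genes have a higher background. The lists were chosen with earlier results of these data known, so a share above background is a description and not a test. Without any test, both mutant libraries lay below both injured Wt libraries for 36.3% of the genes and above them for 25.3%, which is the background where groups are said not to overlap. The split between directions differed with the scaling and with the libraries fitted. Under TMM scaling 40.2% of the called genes were higher in the mutant. The share was 28.2% under library size only and 50.9% when only the 4 injured libraries were fitted. The median log2 fold change of all genes was -0.13 under TMM, moved by -0.13 with library size only and by 0.14 with the injured libraries alone, and fold changes should be read against it. Counts of calls also rested on single libraries. Without Wt 2 dpi replicate 1 they were 767 higher and 1179 lower, without mutant replicate 1 they were 1032 and 1420, and without mutant replicate 2 they were 1717 and 1261. No gene called in the fit of all libraries had the opposite sign in any of the 16 other settings tried. Settings that only rescale the libraries or retest the same fit could hardly change a sign. Fits with 1 library left out share the remaining libraries with the main fit, so they too were unlikely to reverse a called gene.

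Called genes were common among well expressed genes and carried a large share of the reads. Of the genes with a mean under 100 counts in the injured libraries, 59 of 5574 were higher and 39 were lower. Of those with 1000 to 10000 counts, 936 of 6123 were higher and 1322 were lower. With 10000 counts or more, 157 of 689 were higher and 197 were lower. Genes called higher held 39.97% of the counts in the mutant and 19.8% in Wt at 2 dpi, and genes called lower held 11.7% and 26.96%. The median change of called genes was 1.14 upwards and -1.18 downwards on the log2 scale, and 211 genes rose and 248 fell by more than 2.

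**Figure D1:**
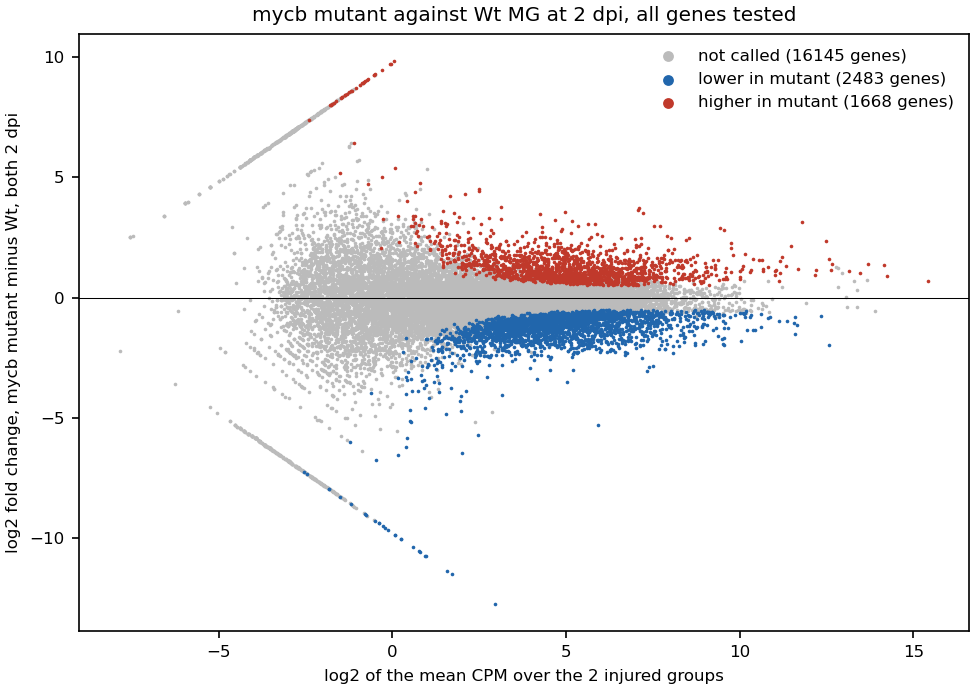
Log2 fold change (mycb mutant minus Wt, both at 2 dpi) against the log2 of the mean CPM (counts scaled by TMM and to library size) over the injured libraries, 1 point per gene. The 1668 genes called higher are red, the 2483 called lower are blue and genes not called are grey; the straight diagonals at the left are genes with no read in 1 of the groups, and 33 genes without a read in any injured library are not drawn.

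Photoreceptor genes were higher in the mutant. All levels below are CPM, counts scaled by TMM and to library size, in replicates 1 and 2 of a group. Rod opsin, rho, stood at 919 and 525 CPM in injured Wt, 5627 and 7187 in the mutant and 6606 and 12263 in uninjured Wt. Both mutant libraries were above both Wt 2 dpi libraries, with no overlap, and near the uninjured ones (log2 fold change 3.15, SE 0.36, edgeR adjusted p = 0.00102). The rod cyclic nucleotide-gated channel subunit gene cnga1a, whose product opens in the dark, read 24.7 and 14.9 in injured Wt and 193 and 304 in the mutant (log2 fold change 3.65, SE 0.40, edgeR adjusted p = 0.000939). Its paralog cnga1b stood at 29.9 and 18.3 and 211 and 339, and the rod disc rim gene rom1a at 22.9 and 16.01 and 271 and 241, again with no overlap. The gene named guca1a, for a calcium sensor that activates retinal guanylate cyclase, stood at 10.8 and 7.59 in Wt and 68.4 and 76.6 in the mutant.

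Rod and cone markers were both mostly higher in the mutant. Of 26 rod markers tested, 23 were higher in the mutant and 0 lower, with a median log2 fold change of 2.51, and of 25 cone markers 19 were higher and 0 lower, with a median of 1.19. All 37 tested markers that both cell types use were higher, with a median of 1.52. Green-sensitive cone opsins led the cone list, with opn1mw3 at 193 and 136 CPM in Wt and 1475 and 955 in the mutant (log2 fold change 2.88, SE 0.27, edgeR adjusted p = 0.000906) and opn1mw2 at 1817 and 1896 and 9845 and 9227. The blue cone opsin opn1sw2 stood at 329 and 254 in Wt and 1386 and 1457 in the mutant. Of the shared markers, nxnl2, a member of the rod-derived cone viability factor family, went from 8.78 and 9.86 to 45.5 and 43.3 CPM. The 3 rod markers not called included nrl, the rod fate transcription factor (1.74 and 2.02 against 4.72 and 3.298 CPM, edgeR adjusted p = 0.0838), and the arrestin gene sagb (42.6 and 26.003 against 54.9 and 55.3). The cone arrestin gene ARR3 (ENSDARG00000056511) was abundant and close in both groups, at 6155 and 6330.2 and 7681 and 9174. The sort was gated on a glial reporter, and the summed level of these lists gives the RNA of photoreceptor genes in each library. Rod markers summed to 2184 and 1514 CPM in injured Wt, 10468 and 12391 in the mutant and 12053 and 20599.8 in uninjured Wt. Cone markers summed to 42107 and 45174, 105759 and 103952 and 65718 and 87215. The part of photoreceptor RNA in the other differences was not tested. Computing TMM without these markers left 1693 genes higher and 2446 lower.

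Genes that define MG were lower in the mutant. Of 15 tested MG markers, 11 were lower and 3 higher, and their median was -1.52. Carbonic anhydrase, cahz, an enzyme abundant in MG, stood at 1252 and 1140.3 CPM in injured Wt, 216 and 389 in the mutant and 965 and 697 in uninjured Wt (log2 fold change -1.98, SE 0.28, edgeR adjusted p = 0.00191). The vimentin gene VIM (ENSDARG00000044501), for an intermediate filament of glia, stood at 102 and 87.8 in Wt and 19.004 and 23.9 in the mutant. The second vimentin gene, vim, fell less, from 195 and 171 to 106 and 122 CPM (log2 fold change -0.68, SE 0.17, edgeR adjusted p = 0.018). In each case the mutant libraries lay below the injured Wt libraries, and for cahz and VIM they also lay below the uninjured ones. The 3 markers that were higher were rlbp1b, at 66.6 and 109 and 215 and 209.8 CPM, SOX9 (ENSDARG00000043923), at 4.73 and 4.21 and 9.43 and 10.7, and a copy of the glutamate transporter gene SLC1A2 (ENSDARG00000052138), at 323 and 342 and 742 and 660.2. Each of these has a paralog in the list that was lower: rlbp1a (-1.67), sox9a (-1.95) and the other SLC1A2 copy (-1.37, log2 fold changes), so the direction of a marker differed between paralogs. By edgeR's adjusted p the call of vim was lost without Wt 2 dpi replicate 1 (adjusted p = 0.157), mutant replicate 1 (adjusted p = 0.0941) or mutant replicate 2 (adjusted p = 0.0734), that of rlbp1b without Wt 2 dpi replicate 1 (adjusted p = 0.154) or mutant replicate 1 (adjusted p = 0.0763) and that of SOX9 without Wt 2 dpi replicate 1 (adjusted p = 0.082), Wt 2 dpi replicate 2 (adjusted p = 0.0979), mutant replicate 1 (adjusted p = 0.0644) or mutant replicate 2 (adjusted p = 0.0642). MG markers summed to 22276 and 20689 CPM in injured Wt, 6165 and 8382 in the mutant and 15366 and 11830.2 in uninjured Wt. The part of the lower MG marker level in the groups of lower genes that follow was not tested.

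Markers of the other cell types that a sort could hold moved in either direction. Of 16 microglia and macrophage markers 5 were higher and 1 lower, among them apoc1 at 34.4 and 45.5 CPM in Wt and 98.4 and 93.3 in the mutant. Their summed level overlapped between the groups, at 350.4 and 386 and 357 and 404. Pigment epithelium markers were higher for 4 of 10, including pmelb, a structural protein of pigment granules, at 31.7 and 64.8 and 153 and 126, and summed to 316 and 523 in Wt 2 dpi, 769 and 816 in the mutant and 66.3 and 31.2 in uninjured Wt. In all 10 both mutant libraries were above both injured Wt libraries. Endothelial and mural markers were lower for 4 of 11 and higher for 0, and their sum was lower without overlap, at 428 and 408 and 199 and 214, while their median log2 fold change was 0.14. Amacrine markers were lower for 5 of 11, including CHAT, the enzyme that makes acetylcholine, at 64.3 and 52.2 and 18.7 and 19.6. Bipolar markers split, with 5 higher and 5 lower of 20, and the glutamate transporter gene slc1a7a of this list went from 4.78 and 5.61 to 36.8 and 32.01 CPM (log2 fold change 2.73, SE 0.23, edgeR adjusted p = 0.000906). Lens markers were low and summed to 122 and 85.8 in Wt 2 dpi, 19.96 and 37.9 in the mutant and 25.5 and 26.9 in uninjured Wt. Of 12 tested, 3 were lower and 0 higher, with a median of -0.32. The lens list was led by crybb2 at 69.7 and 53.6 and 7.46 and 16.5. Leaving out 1 library moved these counts. Higher microglia markers numbered 1 without Wt 2 dpi replicate 1 and 3 without mutant replicate 1. Higher pigment epithelium markers numbered 1 without Wt 2 dpi replicate 1 and 2 without mutant replicate 1. Lower endothelial and mural markers numbered 1 without Wt 2 dpi replicate 1 and 2 without mutant replicate 2. Lower amacrine markers numbered 1 without Wt 2 dpi replicate 1, 2 without Wt 2 dpi replicate 2 and 1 without mutant replicate 1. Higher bipolar markers numbered 3 without Wt 2 dpi replicate 1. Lower bipolar markers numbered 1 without Wt 2 dpi replicate 1, 3 without mutant replicate 1 and 3 without mutant replicate 2. The plot of summed marker levels by library shows rods and MG as the lists with the widest gap between the injured groups among the neural retina types.

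**Figure D2:**
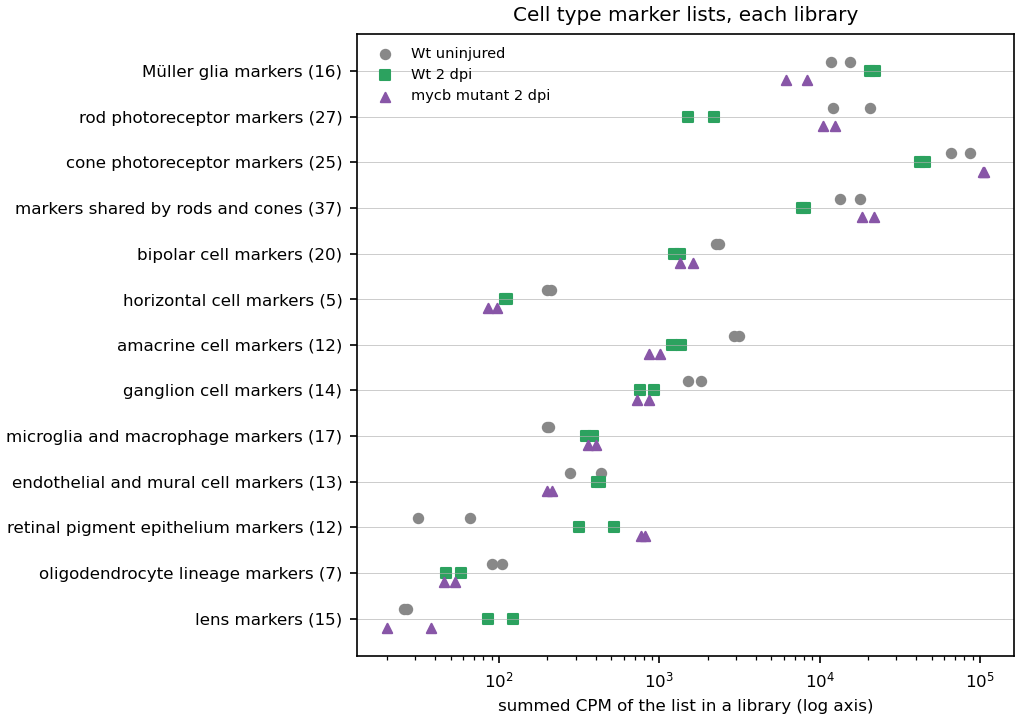
Summed CPM (log axis) of each cell type marker list (number of genes in brackets) in each of the 6 libraries, as 1 point a library. MG markers lie at 6165 and 8382 in the mutant against 22276 and 20689 in Wt at 2 dpi, rod markers at 10468 and 12391 against 2184 and 1514, and microglia markers overlap between these groups.

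Many genes for DNA replication and division were lower in the mutant. These families are those of the study's own supplementary gene sheets, which were chosen from the same libraries, so their direction is not independent evidence. Over the 149 cell cycle and DNA replication genes tested, 83 were lower, 7 were higher and the median was -1.13. Lower cell cycle and replication genes numbered 46 without Wt 2 dpi replicate 1, 54 without mutant replicate 1 and 40 without mutant replicate 2. All 6 tested condensin genes (ncap) were lower, with a median of -1.49. The replicative helicase family, mcm, was lower for 9 of 11, kinetochore genes for 12 of 16 and centromere protein genes (cenp) for 8 of 15. Lower kinetochore genes numbered 5 without Wt 2 dpi replicate 1, 7 without mutant replicate 1 and 4 without mutant replicate 2. Lower cenp genes numbered 4 without Wt 2 dpi replicate 1, 4 without Wt 2 dpi replicate 2, 5 without mutant replicate 1 and 1 without mutant replicate 2. The mcm genes summed to 911 and 917 CPM in injured Wt, 304 and 275 in the mutant and 79.4 and 69.2 in uninjured Wt, so that the mutant lay between the Wt groups. The helicase subunit gene mcm5 stood at 145 and 135 CPM in injured Wt, 32.4 and 26.3 in the mutant and 2.12 and 0.902 in uninjured Wt (log2 fold change -2.25, SE 0.30, edgeR adjusted p = 0.00143). Both mutant libraries lay far below the injured Wt libraries and above the uninjured ones, and the same held for mcm2, at 166 and 176, 51.02 and 49.1 and 1.62 and 2.02. The sliding clamp gene PCNA stood at 537 and 507 in injured Wt and 161 and 169.8 in the mutant (log2 fold change -1.66, SE 0.17, edgeR adjusted p = 0.00092). Among other genes of these families, the cyclin B gene ccnb1 went from 82.1 and 78.2 to 24.4 and 19.1 CPM. The outer kinetochore gene spc24 went from 30.03 and 26.003 to 6.99 and 5.94, and the replication origin factor gene cdc45 from 23.7 and 20.05 to 5.85 and 5.29. The proliferation marker gene mki67 fell less, from 179.6 and 150.1 to 119 and 67.3 CPM (log2 fold change -0.82, SE 0.25, edgeR adjusted p = 0.0445). By edgeR's adjusted p the call of mki67 was lost without Wt 2 dpi replicate 1 (adjusted p = 0.21), Wt 2 dpi replicate 2 (adjusted p = 0.0679), uninjured Wt replicate 2 (adjusted p = 0.0959) or mutant replicate 2 (adjusted p = 0.404), that of cdc45 without Wt 2 dpi replicate 1 (adjusted p = 0.103), mutant replicate 1 (adjusted p = 0.0858) or mutant replicate 2 (adjusted p = 0.106) and that of spc24 without mutant replicate 2 (adjusted p = 0.0581). The large mitotic genes cenpf (69.4 and 87.4 against 52.7 and 27.3) and cenpe (28.9 and 35.97 against 23.7 and 12.97) were not called, and in both of them mutant replicate 1 was nearer to Wt than replicate 2. The family of cyclin-dependent kinases, their partners and their inhibitors (cdk) was mixed, with 6 higher and 4 lower of 28. Higher cdk genes numbered 1 without Wt 2 dpi replicate 1, 2 without Wt 2 dpi replicate 2 and 1 without mutant replicate 1. These genes summed to 841 and 852 CPM in injured Wt and 837 and 826 in the mutant, below 908 and 958 in uninjured Wt. Among the 4 lower members was an inhibitor gene, cdkn1a, a target of p53 that halts the cycle, at 69.8 and 55.3 in injured Wt, 11.8 and 14.5 in the mutant and 15.6 and 8.28 in uninjured Wt (log2 fold change -2.25, SE 0.30, edgeR adjusted p = 0.0015).

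Genes for enzymes that make nucleotides were mostly lower too. Of 30 tested, 22 were lower and 3 were higher, with a median of -1.06. Lower nucleotide synthesis genes numbered 13 without Wt 2 dpi replicate 1, 13 without mutant replicate 1 and 14 without mutant replicate 2. The gene rrm2, for the small subunit of ribonucleotide reductase that supplies deoxynucleotides, was at 282 and 304 CPM in injured Wt, 46.8 and 32.8 in the mutant and 3.47 and 6.96 without injury (log2 fold change -2.88, SE 0.31, edgeR adjusted p = 0.000927). The thymidylate synthase gene TYMS stood at 77.7 and 94.9 and 24.7 and 18.5, and SHMT1, for a serine hydroxymethyltransferase that feeds one-carbon units into nucleotide synthesis, at 86.4 and 78.6 and 18.3 and 20.3. None of these overlapped between the groups. The members that were higher were both copies of IMPDH1 (1.24 and 0.99), known in mammals for high expression in photoreceptors, and nme2a (0.85, log2 fold changes), whose call was lost by edgeR's adjusted p without Wt 2 dpi replicate 1 (adjusted p = 0.0509) or Wt 2 dpi replicate 2 (adjusted p = 0.0605). DNA repair genes were lower for 16 of 23 and higher for 0, with a median of -1.10. Lower DNA repair genes numbered 5 without Wt 2 dpi replicate 1, 10 without Wt 2 dpi replicate 2, 8 without mutant replicate 1 and 6 without mutant replicate 2. The mismatch repair gene MSH6 (ENSDARG00000104541) went from 137 and 146 to 38.3 and 46.4 CPM and the Fanconi anaemia gene FANCD2 from 29.1 and 28.7 to 9.24 and 6.35, while PARP1, a sensor of strand breaks, stood at 71.9 and 65.96 and 82.01 and 90.5 and was not called.

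Genes for building ribosomes were lower by a smaller amount than those for replication. Over the 389 ribosome and translation genes tested, 140 were lower, 0 were higher and the median was -0.55. The number lower was 219 with library size only, 104 with RLE size factors, and 31 with glmTreat, and it was 30 without Wt 2 dpi replicate 1, 62 without Wt 2 dpi replicate 2, 38 without mutant replicate 1 and 48 without mutant replicate 2. The median kept its sign in every setting (-0.68 to -0.40). The families were again those of the study's sheets. Within them, the medians were further from 0 for assembly factors than for the ribosomal proteins. The nucleolus family had 18 of 27 lower with a median of -0.99, 40S biogenesis 36 of 71 with -0.72 and 60S biogenesis 34 of 72 with -0.64. Cytosolic ribosomal proteins of the large subunit had 16 of 49 with -0.52. Mitochondrial ribosomal proteins of the small subunit had 3 of 24 with -0.39, a share called lower that was near the 12.2% of all genes tested. These counts also fell when single injured libraries were left out. Over the settings the median ran from -1.12 to -0.75 for the nucleolus family and from -0.65 to -0.38 for the large subunit proteins. It ran from -0.86 to -0.58 for 40S biogenesis and from -0.77 to -0.50 for 60S biogenesis. Both of these ranges overlap that of the large subunit proteins, but a setting can move all families together. The ranges therefore do not show whether the order of the medians held within each setting. Of all genes with 10000 counts or more, 197 of 689 were lower, which is the nearer background for abundant ribosomal protein genes. The nucleolar chaperone gene npm1a stood at 223 and 195 CPM in injured Wt, 75.4 and 82.7 in the mutant and 18.5 and 24.8 in uninjured Wt (log2 fold change -1.40, SE 0.19, edgeR adjusted p = 0.00167). The methyltransferase gene emg1, needed for the small subunit, stood at 21.6 and 23.2 and 7.75 and 7.88, and noc2l at 69.1 and 59.97 and 27.1 and 24.1. None of the mutant libraries overlapped with injured Wt for these genes. The box C/D component gene nop56 was closer, at 179 and 153 and 109 and 128, and was not called, as were rpl7a, at 1508 and 1550.2 and 1039 and 1011, and rps9, at 1349 and 1203 and 811 and 1009. Among translation factors the translational repressor gene eif4ebp3l had the largest change, from 79.9 and 81.8 to 20.8 and 24.9 CPM (log2 fold change -1.82, SE 0.18, edgeR adjusted p = 0.00092), and the elongation factor gene eef2b went from 4101 and 4099 to 1779.6 and 2105. Genes with near-identical copies share reads, so single ribosomal protein genes are less certain than their families.

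**Figure D3:**
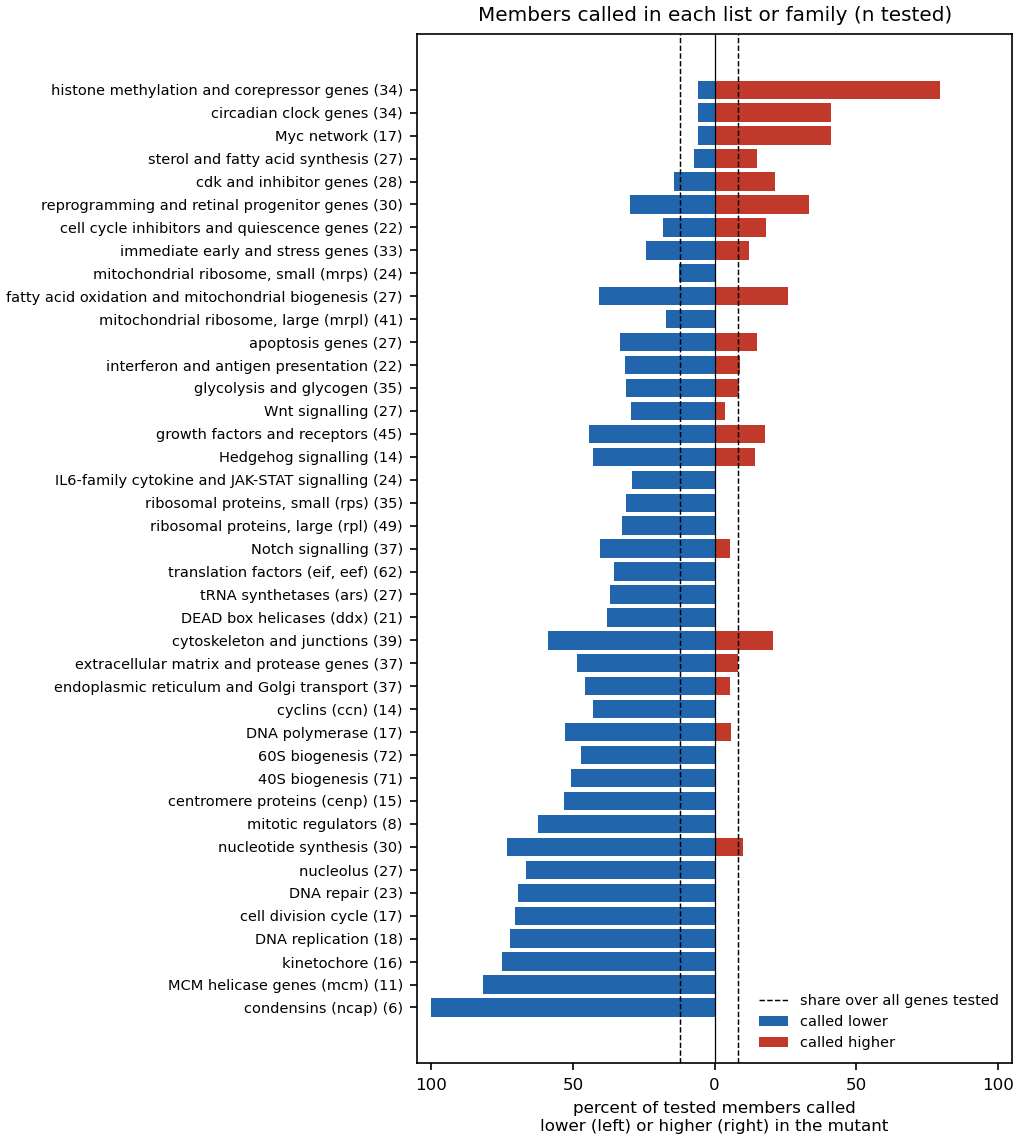
Percent of tested members (number in brackets) that were called lower (blue, left) or higher (red, right) in the mutant for each list or family outside the cell type markers, with dashed lines at the shares over all genes tested, 12.2% lower and 8.21% higher. Condensin (ncap), mcm and kinetochore genes lie at the bottom with most members lower, and histone methylation and corepressor genes at the top with 27 of 34 higher. The dashed shares are not matched for expression, and lists and families were chosen with results of these data known.

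Members of the Myc family moved in both directions. The gene mych, a second zebrafish Myc gene, was lower, at 296 and 205 CPM in injured Wt, 92.9 and 91.98 in the mutant and 53.02 and 30.3 in uninjured Wt (log2 fold change -1.44, SE 0.27, edgeR adjusted p = 0.00568). MYCL (ENSDARG00000034956) was higher, at 87.3 and 71.9 and 286 and 209.6 (log2 fold change 1.64, SE 0.21, edgeR adjusted p = 0.00135), and MYCN was higher at 9.399 and 10.8 and 23.7 and 16.3 (log2 fold change 0.99, SE 0.25, edgeR adjusted p = 0.0226). Both mutant libraries lay above all 4 Wt libraries for MYCL and MYCN, but the call of MYCN was lost by edgeR's adjusted p without Wt 2 dpi replicate 1 (adjusted p = 0.129), Wt 2 dpi replicate 2 (adjusted p = 0.0581) or mutant replicate 1 (adjusted p = 0.166). The name MYC was given to 2 identifiers, for mycb and myca, and these could not be told apart by name. One of them (ENSDARG00000007241) stood at 205 and 157 in injured Wt, 127 and 127 in the mutant and 235 and 139 without injury, and was not called (log2 fold change -0.50, SE 0.25, edgeR adjusted p = 0.186). The other (ENSDARG00000045695) stood at 33.8 and 32.8, 83.9 and 71.2 and 32.3 and 35.8, and was higher in the mutant (log2 fold change 1.22, SE 0.17, edgeR adjusted p = 0.00194). The transcript of the mutated gene was therefore not read as a check of the genotype, and a frame-shifting deletion need not change the number of its reads. Of the 17 Myc network genes tested, 7 were higher and 1 was lower. Higher Myc network genes numbered 2 without Wt 2 dpi replicate 1, 3 without Wt 2 dpi replicate 2 and 2 without mutant replicate 1. The partner gene MAX was not called (151 and 149.96 and 107 and 116), and mxd4, for an antagonist that competes for Max, was higher (9.52 and 6.897 and 26.2 and 12.2), a call that was lost by edgeR's adjusted p without Wt 2 dpi replicate 1 (adjusted p = 0.0582), Wt 2 dpi replicate 2 (adjusted p = 0.139) or mutant replicate 1 (adjusted p = 0.272).

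Genes of reprogramming and retinal progenitors split, with 10 higher and 9 lower of 30. Higher reprogramming genes numbered 6 without Wt 2 dpi replicate 1 and 6 without Wt 2 dpi replicate 2. The proneural factor gene ascl1a, which zebrafish MG need to form progenitors, stood at 246 and 229 CPM in injured Wt, 56.2 and 65.2 in the mutant and 4.03 and 3.72 in uninjured Wt (log2 fold change -1.97, SE 0.17, edgeR adjusted p = 0.000906). The mean was 238 ± 11.7 CPM (SD, n = 2) in injured Wt and 60.7 ± 6.32 CPM (SD, n = 2) in the mutant, which was still above both uninjured libraries. The members that were higher included atoh7 and a copy of INSM1. The ganglion cell fate factor gene atoh7 stood at 0.667 and 1.86 in injured Wt, 16.8 and 8.11 in the mutant and 2.39 and 3.11 in uninjured Wt (log2 fold change 3.31, SE 0.55, edgeR adjusted p = 0.00331). INSM1 (ENSDARG00000091756), a factor of neuronal differentiation, stood at 11.7 and 13.4 and 57.3 and 36.1 (log2 fold change 1.90, SE 0.32, edgeR adjusted p = 0.00347). Homeobox gene rx1, for a retinal progenitor and photoreceptor factor, was not called, at 329 and 324 and 457 and 329.

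Signalling genes that act early after retinal injury were lower in part. Of 24 genes of IL6-family cytokine and JAK-STAT signalling, 7 were lower and 0 higher. As a list they were near all genes tested, with a median of -0.16 against -0.13. Of their log2 fold changes 13 were negative and 11 positive. Lower IL6-family genes numbered 4 without mutant replicate 2. The leptin gene lepb, an injury-induced cytokine in zebrafish, stood at 66.5 and 52.7 CPM in injured Wt, 11.8 and 15.9 in the mutant and 0.253 and 0 in uninjured Wt (log2 fold change -2.11, SE 0.42, edgeR adjusted p = 0.00742). The kinase gene JAK1 was not called, at 244 and 238 and 175 and 235. In the Notch list, 15 of 37 were lower and 2 (dtx4a and numbl) were higher, with a median of -0.50. Lower Notch genes numbered 6 without Wt 2 dpi replicate 1 and 7 without mutant replicate 2. The members that fell included transcriptional targets: her4.3 stood at 46.7 and 72.7 in injured Wt, 5.64 and 4.86 in the mutant and 1.03 and 4.31 in uninjured Wt (log2 fold change -3.51, SE 0.53, edgeR adjusted p = 0.00227), and her12 went from 71.5 and 66.9 to 27.1 and 10.2. Both genes have near-identical copies in the her4 and her12/her15 families, so the split of reads between copies is uncertain. Wnt genes were lower for 8 of 27 and higher for 1. Lower Wnt genes numbered 4 without Wt 2 dpi replicate 1, 5 without Wt 2 dpi replicate 2 and 4 without mutant replicate 2. The secreted Wnt inhibitor gene dkk1a went from 18.8 and 18.7 to 2.92 and 3.03 CPM, against 0.118 and 0.129 in uninjured Wt (log2 fold change -2.65, SE 0.28, edgeR adjusted p = 0.00092), and znrf3, for a ubiquitin ligase that removes Wnt receptors, from 25.8 and 21.5 to 10.3 and 8.72. Among Hedgehog genes, hhip, for a decoy that binds Hedgehog ligands, went from 50.3 and 71.8 to 11.97 and 12.1, and the ligand gene SHH (ENSDARG00000068567) was higher at low levels, 0.318 and 1.34 and 4.72 and 3.89. The call of SHH was lost by edgeR's adjusted p without Wt 2 dpi replicate 1 (adjusted p = 0.107), mutant replicate 1 (adjusted p = 0.122) or mutant replicate 2 (adjusted p = 0.0526).

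Growth factors and their receptors were lower for 20 of 45 and higher for 8, with a median of -0.73. Lower members numbered 13 without Wt 2 dpi replicate 1 and 13 without mutant replicate 1. Higher members numbered 4 without Wt 2 dpi replicate 1, 5 without Wt 2 dpi replicate 2 and 4 without mutant replicate 1. The Eph receptor gene epha2a stood at 72.04 and 77.7 in injured Wt, 18.9 and 14.7 in the mutant and 3.05 and 2.26 in uninjured Wt (log2 fold change -2.15, SE 0.22, edgeR adjusted p = 0.00092), and epha4l at 14.4 and 9.65 and 3.31 and 1.31 in the injured groups. The ligand gene egf was higher, at 3.64 and 2.49 in injured Wt, 18.2 and 7.41 in the mutant and 13.6 and 15.6 in uninjured Wt (log2 fold change 2.06, SE 0.41, edgeR adjusted p = 0.00738). Its 2 mutant libraries differed by more than the injured Wt libraries did, and the higher of them was above both uninjured libraries.

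**Figure D4:**
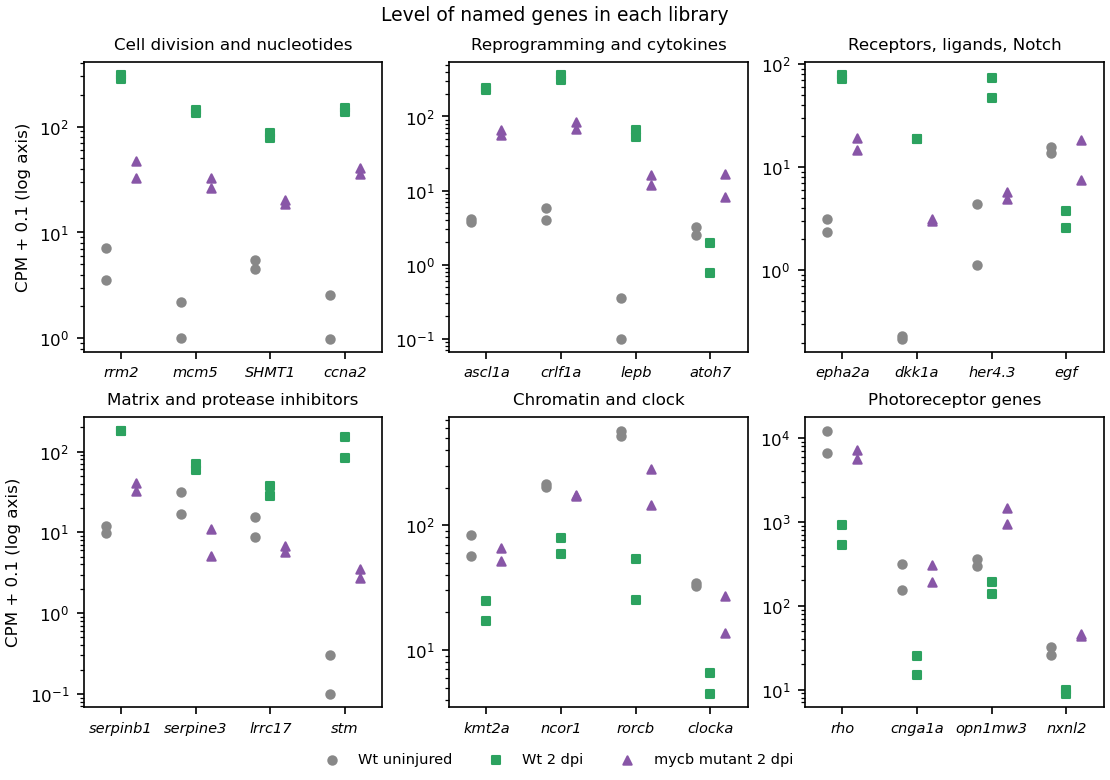
CPM plus 0.1 (log axis) of named genes in each library, as grey circles for uninjured Wt, green squares for Wt at 2 dpi and purple triangles for the mycb mutant at 2 dpi. Replication, cytokine and protease inhibitor genes were lower in both mutant libraries than in injured Wt, and for atoh7, egf and the chromatin, clock and photoreceptor genes shown both mutant libraries were above injured Wt.

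Matrix and protease genes were lower for 18 of 37 and higher for 3, with a median of -0.99. The median ran from -1.29 to -0.80 over the settings. Fewer members were higher when Wt 2 dpi replicate 1, Wt 2 dpi replicate 2 or mutant replicate 1 was left out. The serpin gene serpine3, of a family of serine protease inhibitors, stood at 70.9 and 58.8 CPM in injured Wt, 4.94 and 11.02 in the mutant and 31.1 and 16.8 in uninjured Wt (log2 fold change -3.02, SE 0.40, edgeR adjusted p = 0.00148). The leucine-rich repeat gene lrrc17 stood at 37.6 and 27.7, 5.64 and 6.69 and 15.4 and 8.69. For both genes the mutant libraries lay below the uninjured libraries as well as below injured Wt. The gene stm, for starmaker, known in zebrafish as a matrix protein of ear stones, stood at 152 and 82.1 in injured Wt, 3.41 and 2.62 in the mutant and 0.202 and 0 in uninjured Wt (log2 fold change -5.28, SE 0.48, edgeR adjusted p = 0.000906). It had the largest decrease of all named genes with a mean of at least 1000 counts. The metalloreductase gene STEAP4 (315 and 256 and 24.9 and 44.6) and anos1b (27.6 and 30.4 and 4.11 and 5.58), an orthologue of the gene for the matrix protein anosmin, were among the next. Cytoskeleton and junction genes were lower for 23 of 39 and higher for 8, with a median of -0.89. Lower cytoskeleton genes numbered 14 without Wt 2 dpi replicate 1 and 15 without mutant replicate 1. Higher cytoskeleton genes numbered 5 without Wt 2 dpi replicate 1 and 5 without mutant replicate 1. The myosin light chain genes myl9b (70.4 and 72.7 and 22.2 and 14.5) and myl6 (350.2 and 284 and 78.3 and 121) were lower. The non-muscle myosin heavy chain gene myh9a was higher, at 11.2 and 14.8 and 75.7 and 41.1 (log2 fold change 2.17, SE 0.29, edgeR adjusted p = 0.0015), while heavy and light chains join in the same motor.

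Chromatin and clock genes were higher for a larger share than all genes tested. Both lists were chosen with earlier results of these data known, so their shares are not independent evidence. Of 34 histone methylation and corepressor genes, 27 were higher and 2 (hdac3 and jarid2b) were lower, with a median of 0.89. Over the settings the number higher ran from 12 to 31. It was 13 without Wt 2 dpi replicate 1 and 15 without mutant replicate 1. The gene kmt2a, for a histone H3 lysine methyltransferase of the trithorax group, stood at 17.02 and 24.7 CPM in injured Wt, 65.5 and 51.1 in the mutant and 82.6 and 56.8 in uninjured Wt (log2 fold change 1.49, SE 0.25, edgeR adjusted p = 0.0037). Its relative kmt2d stood at 13.6 and 16.7, 42.3 and 35.5 and 41.7 and 38.002, and the corepressor gene ncor1 at 58.4 and 78.2, 175 and 171 and 213 and 204. For these genes the mutant libraries were above injured Wt and near uninjured Wt. Of 34 clock genes 14 were higher and 2 lower, with a median of 0.60. Higher clock genes numbered 9 without Wt 2 dpi replicate 1. The nuclear receptor gene rorcb stood at 25.03 and 53.8 in injured Wt, 282 and 146 in the mutant and 572 and 516 in uninjured Wt (log2 fold change 2.44, SE 0.38, edgeR adjusted p = 0.00273). The clock activator gene clocka stood at 4.37 and 6.41, 27.2 and 13.6 and 34.2 and 32.6, and cry3a, of the cryptochromes, at 109 and 121, 555 and 272 and 636 and 572. In all of them mutant replicate 1 was the higher of the mutant libraries. The clock repressor gene NR1D2 was not called, at 336 and 282 and 252 and 260.1. Photoreceptors express clock genes too, and the part of the higher photoreceptor RNA in these values was not tested.

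In energy metabolism, glycolysis and glycogen genes were lower for 11 of 35 and higher for 3. Lower glycolysis and glycogen genes numbered 6 without Wt 2 dpi replicate 1, 7 without Wt 2 dpi replicate 2, 6 without mutant replicate 1 and 6 without mutant replicate 2. The glycogen phosphorylase gene pygl, which releases glucose from the glycogen that MG store, stood at 546 and 507 CPM in injured Wt, 118 and 177 in the mutant and 286 and 207 in uninjured Wt (log2 fold change -1.83, SE 0.24, edgeR adjusted p = 0.00136). The glycerol phosphate dehydrogenase gene gpd1b stood at 40.3 and 53.2, 9.22 and 12.4 and 109 and 67.9, and in both genes the mutant libraries were below every Wt library. Fatty acid oxidation and mitochondrial biogenesis genes were higher for 7 and lower for 11 of 27, with a median of -0.49. The number higher fell when Wt 2 dpi replicate 1 was left out. These genes summed to 1250 and 1276 CPM in injured Wt and 963 and 935 in the mutant, without overlap. Against this direction, the carnitine transferase gene cpt1ab stood at 5.46 and 6.64 and 26.8 and 17.3. The coactivator gene ppargc1a stood at 1.96 and 4.37 and 13.01 and 11.05. Sterol and fatty acid synthesis genes were mostly not called, with 4 higher and 2 lower of 27. Higher lipid synthesis genes numbered 1 without Wt 2 dpi replicate 1. The lower members included elovl2, which lengthens polyunsaturated fatty acids, at 71.9 and 68.03 and 12.6 and 23.4 (log2 fold change -1.96, SE 0.28, edgeR adjusted p = 0.00196). Endoplasmic reticulum and Golgi transport genes were lower for 17 of 37, a count that ran from 4 to 27 over the settings. It was 4 without Wt 2 dpi replicate 1, 6 without mutant replicate 1 and 11 without mutant replicate 2. The chaperone gene HSPA5 was not called (328 and 288 and 180.4 and 266).

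Stress and death genes gave no single direction. Of 33 immediate early and stress genes 4 were higher and 8 lower. Lower stress genes numbered 5 without Wt 2 dpi replicate 1 and 5 without mutant replicate 2. The small heat shock gene HSPB1 stood at 250.2 and 248 CPM in injured Wt, 26.5 and 60.4 in the mutant and 135 and 75.6 in uninjured Wt (log2 fold change -2.52, SE 0.38, edgeR adjusted p = 0.00231), and DDIT4, for a stress-induced inhibitor of TOR signalling, at 154 and 197, 25.1 and 42.4 and 94.6 and 72.7. Both genes were below their uninjured level in the mutant. The inducible heat shock gene hsp70.3 was high in uninjured Wt (4317 and 2339) and not called between the injured groups (1549.6 and 1015 and 859 and 769). Apoptosis genes were lower for 9 of 27, including perp, a p53 target, at 79.1 and 58.1 and 19.9 and 19.3, and the initiator caspase gene casp8 at 17.5 and 17.2 and 6.42 and 5.62. The other called members, 4 genes, were higher, a number that was 0 without Wt 2 dpi replicate 1 and 2 without Wt 2 dpi replicate 2.

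Interferon and antigen presentation genes were lower for 7 and higher for 2 of 22. Lower interferon and antigen presentation genes numbered 4 without Wt 2 dpi replicate 1, 1 without Wt 2 dpi replicate 2, 3 without mutant replicate 1 and 1 without mutant replicate 2. The antiviral gene mxa had 106 and 749 counts in injured Wt and 17 and 17 in the mutant, and mxb had 23 and 729 and 0 and 0. In both, Wt 2 dpi replicate 2 held most of the counts. By edgeR's adjusted p the call of mxa was lost without Wt 2 dpi replicate 2 (adjusted p = 0.486), mutant replicate 1 (adjusted p = 0.106) or mutant replicate 2 (adjusted p = 0.0916), and that of mxb without Wt 2 dpi replicate 2 (adjusted p = 0.309) or mutant replicate 1 (adjusted p = 0.0601). The class I MHC gene mhc1uba was higher in both mutant libraries than in every Wt library, at 13.4 and 7.698 CPM in injured Wt, 69.4 and 106 in the mutant and 1.84 and 0.773 in uninjured Wt (log2 fold change 3.06, SE 0.39, edgeR adjusted p = 0.00133).

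Some genes were read in 1 injured group and not in the other. With at most 1 count in each library of one group and at least 20 in each library of the other, 71 genes were read only in Wt and 48 only in the mutant. Most of the 71 and some of the 48 were not called, such as POC1A (edgeR adjusted p = 0.0526) and ripply2 (edgeR adjusted p = 0.132). The genes named below were called in the fit of all libraries. They were picked for having almost no counts in 1 injured group, so their calls and folds are not independent support. PTF1A, given below, passed the filter for low counts only through the mutant libraries. Folds for these genes are bounds against a floor of 3 counts per library. The gene fkbp15a had 417 and 327 counts in injured Wt, 0 and 0 in the mutant and 134 and 33 in uninjured Wt, at least 91.5-fold lower. A gene named AHSA1 (ENSDARG00000028664), for a co-chaperone of Hsp90, had 169 and 246, 0 and 0 and 103 and 80 counts, at least 52.1-fold lower. The gene named SMC1A (ENSDARG00000055754), for a cohesin subunit, had 99 and 156, 0 and 0 and 237 and 294 counts, at least 32.1-fold lower. The names AHSA1 and SMC1A can cover several paralogs, so these counts are for the identifiers given and not for every copy. The class II MHC gene mhc2dab had 157 and 53, 0 and 0 and 229 and 116, at least 25.2-fold lower. Of the 71 genes, 14 also had at least 20 counts in both uninjured Wt libraries, and 12 of these had no read in either mutant library. In the other direction, the amacrine and horizontal cell fate gene PTF1A had 0 and 0 counts in injured Wt, 82 and 92 in the mutant and 7 and 0 in uninjured Wt, at least 39.04-fold higher, a difference that was not called by edgeR's adjusted p without Wt 2 dpi replicate 1 (adjusted p = 0.0662), mutant replicate 1 (adjusted p = 0.0855) or mutant replicate 2 (adjusted p = 0.0878). The phosphodiesterase gene pde11a had 0 and 0, 21 and 66 and 73 and 100, and the axon guidance receptor gene DCC had 0 and 0, 29 and 37 and 111 and 94, at least 14.8-fold higher. Of the 48 genes, 9 had at least 20 counts in both uninjured libraries as well. Mutant and Wt fish were pools of different animals, so alleles that differ between the lines for other reasons than mycb cannot be told apart from its loss.

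**Figure D5:**
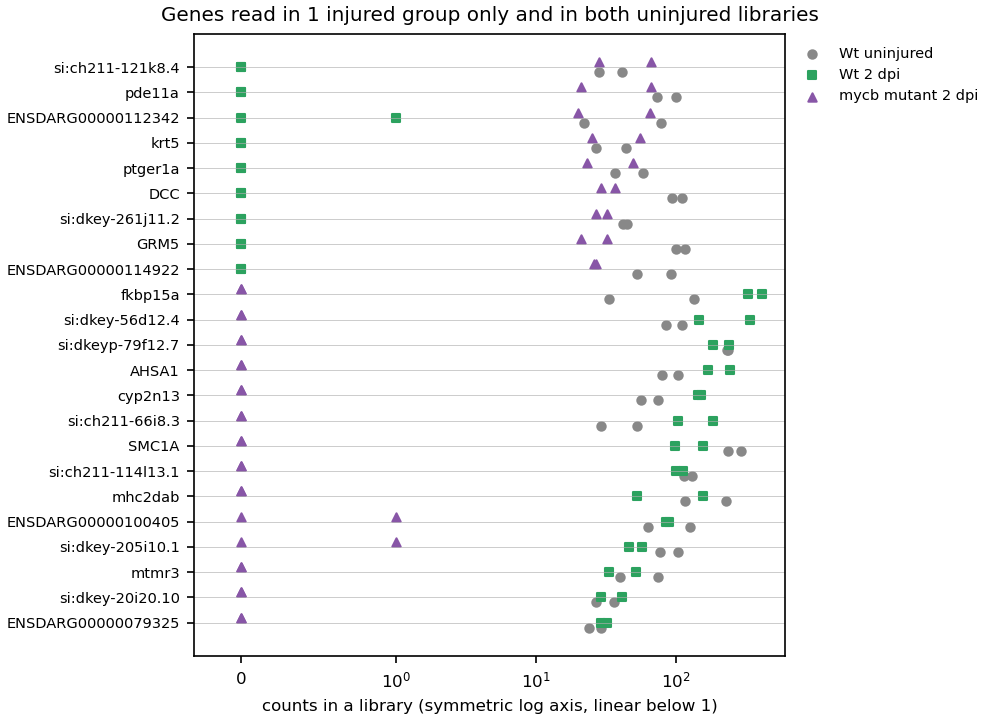
Counts (symmetric log axis) in each library for the 9 genes read only in the mutant and the 14 read only in Wt among the injured groups that had at least 20 counts in both uninjured Wt libraries. The mutant triangles of the lower 14 genes and the injured Wt squares of the upper 9 lie at 0 or 1, while grey uninjured circles lie at 22 or more. Not all of these genes were called between the injured groups.

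Among the named genes with a mean of at least 100 counts and reads in both groups, clic6, for a chloride channel-like protein of secretory epithelia, had the largest increase, from 0.667 and 0.279 CPM in injured Wt to 12.5 and 9.15 in the mutant, against 6.32 and 5.34 in uninjured Wt (log2 fold change 4.495, SE 0.47, edgeR adjusted p = 0.00092). The gene fgfbp3, for a secreted carrier of fibroblast growth factors, stood at 0.0303 and 0.801, 10.8 and 5.42 and 0.118 and 0.276, and was thus higher in the mutant than in all 4 Wt libraries (log2 fold change 4.296, SE 1.05, edgeR adjusted p = 0.0182), with the call lost without mutant replicate 1 (adjusted p = 0.132). A kinesin gene, KIF26A (ENSDARG00000042368), stood at 4.32 and 5.61, 74.6 and 41.4 and 20.95 and 30.9 (log2 fold change 3.55, SE 0.33, edgeR adjusted p = 0.00092). The dipeptidase gene cndp1 was uneven within groups, at 1.96 and 12.4 in injured Wt and 107 and 23.3 in the mutant, and its call was lost by edgeR's adjusted p without Wt 2 dpi replicate 1 (adjusted p = 0.0573) or mutant replicate 1 (adjusted p = 0.176). Among decreases with reads in both groups, the galectin gene lgals1l1 stood at 6.94 and 8.87 in injured Wt and 0.0636 and 0.113 in the mutant, and was at 0 and 0 in uninjured Wt (log2 fold change -6.46, SE 0.66, edgeR adjusted p = 0.00102). The glutathione transferase gene GSTM3 (ENSDARG00000029473) went from 45.2 and 34.5 to 7.03 and 6.57, and mfap5, for a microfibril protein of the matrix, from 44.8 and 36.1 to 6.84 and 7.79, below its level in uninjured Wt (70.5 and 41.002).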

How the data were processed

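PolyA RNAseq libraries of FACS-purified GFP+ MG were counted per gene against GRCz11. The submitters' processing notes also list GRCh38, and name cutadapt 2.3, FastQC 0.11.8, STAR 2.7.8a, RSEM 1.3.3 and DESeq2, with no role given. The authors deposited raw counts per gene, whole numbers without normalization, by Ensembl identifier. Whether counting used strand is not given in the sources used here. All 6 count columns matched a sample by name and 0 others were present. Supplementary gene sheets gave names and family members only, and their fold changes and p-values were not used.

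The counts were fitted with edgeR 4.0.16 in R 4.3.3 (filterByExpr with a minimum count of 10, TMM, quasi-likelihood test). The model had 1 coefficient for each group and used all 6 libraries, which left 3 residual degrees of freedom and a common biological coefficient of variation of 0.396. The standard error (SE) of a log2 fold change was taken as its size over the root of the F statistic. P-values were adjusted over all genes tested, a gene was called at an adjusted p of at most 0.05 with an absolute log2 fold change above 0.5, and the study's FPKM threshold was left out. Counts of same-group libraries departed from sampling noise (chi-square per gene 49.1 to 125), so none were merged. The labels do not say that replicates came from separate fish, so p-values measure the spread between these samples.

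In a test on simulated data with 200 genes changed, edgeR called 18 of 100 with a change of 1 on the log2 scale and 71 of 100 with a change of 2, and 5 unchanged genes, among 19095 tested. In the data 4151 genes were called. With fewer changed genes the adjustment of p is stricter, so the simulated shares do not carry over to this comparison.

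Names were given to 22008 of the 23510 identifiers: 480 printed in the supplement, 1174 paired through the printed mean count, and 20354 from a gene table, whose names in capitals follow human genes and can cover several paralogs. The gene lists matched 786 of 822 symbols. The members of the comparison, the lists and the rules were chosen with earlier results of these data known. The named genes were drawn from the 10 largest changes each way with a mean of at least 100 counts (and at least 1000). They were also drawn from genes the study measured by qPCR, Myc family genes, and up to 3 called and 2 uncalled members per list. Not every gene that these rules select is given, and values of most qPCR genes are not. Other names in a count of 5 or fewer, paralogs set beside them, and genes read in 1 group were chosen after their values were seen. The alternatives were DESeq2 1.42.0, RLE size factors, library size only, TMM without photoreceptor markers, no filter, a mean of at least 300 counts, glmTreat, the adjusted p alone, a fit of the injured libraries, a block for replicate number, and each library left out. A search of promoters for the Myc binding motif was not run because no promoter sequences were used here.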

Additional observations from a re-analysis of the deposited data

How the results depend on the processing

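Over the 16 alternatives no called gene changed sign, while the numbers called varied. The adjusted p alone and glmTreat used the same fit, and other scaling moved all genes together by little, so these could hardly change a sign. Leaving out 1 library keeps the remaining libraries of the main fit, so a reversed sign was unlikely there too. DESeq2 called 2357 higher and 2595 lower, RLE size factors 1903 and 2131, library size only 1197 and 3049, TMM without photoreceptor markers 1693 and 2446, a mean of at least 300 counts 1661 and 2790, no filter 2163 and 3208, the injured libraries alone 2046 and 1975, and glmTreat against 0.5 794 and 1167. The adjusted p alone gave the same calls as the main rule. Leaving out each library in turn gave 767 to 2167 higher and 1179 to 2711 lower. The share of called genes that were higher, 40.2% as reported, was 28.2% with library size only, 50.9% with the injured libraries alone, 50.8% without uninjured Wt replicate 2 and 57.7% without mutant replicate 2. At an unadjusted p under 0.05, 6816 genes passed. The cause of these differences was not tested.

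Replicate numbers 1 and 2 occur in each group. With the replicate number as a block, 1705 genes were higher and 2563 lower. Deviations of same-numbered libraries were nearly uncorrelated (r across genes from -0.044 to 0.018), so the numbers were not taken to pair the samples.

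Of 57 lists, families and pools, 48 kept the sign of their median log2 fold change in every alternative. The exceptions included the lists of horizontal, endothelial and mural, oligodendrocyte and lens markers. The others were reprogramming genes, IL6-family signalling, cell cycle inhibitors, immediate early genes and the cdk family. Counts of members given for these lists do not stand for a direction of the whole list. Of the 118 genes in the text with a tested change, glmTreat ended the call of 9, library size only of 4, and leaving out mutant replicate 1 of 12. With 2 libraries a group, genes not called are not shown to be equal. The simulation does not measure how often a given change is found in these data, because it changed far fewer genes.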

Other observations

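The groups below were put together after their values were seen and are given as values only. The 13 mRNAs of the mitochondrial genome made up 8.55 and 9.48% of the counts in injured Wt, 12.5 and 18.3% in the mutant and 10.6 and 14.4% in uninjured Wt. Both mutant libraries were above both injured Wt libraries, they differed from each other, and 1 of them lay within the uninjured range. Of these mRNAs 6 were called higher and 0 lower, with a median log2 fold change of 1.06. Genes for cilia gave different medians by complex: 6 of 8 Bardet-Biedl syndrome genes, which serve membrane traffic in cilia, were higher with a median of 0.90, while the median of the 14 intraflagellar transport genes tested was 0.11.

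Several other groups were lower in part. The augmin complex, which branches spindle microtubules, had 6 of 8 genes lower with a median of -1.51. Nucleoporin genes were lower for 13 of 22 (median -0.86) and higher for 1. Importin genes were lower for 4 of 8 (median -0.77), genes of the chaperonin CCT, which folds actin and tubulin, for 5 of 8 (median -0.71), genes of the proteasome regulatory particle for 12 of 25 (median -0.59), and genes of the alpha ring of its core for 3 of 10 (median -0.49).

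Genes next to mycb in the order of the RefSeq table (GRCz12tu) were called at shares near that of other genes. Among 25 genes on either side, 31 tested genes held 3 higher and 2 lower, or 16.1%, and among 100 on either side 23.2% of 125 were called, against 22.5% of the 13702 genes placed in the table. Of the 57 genes read in 1 injured group that could be placed, 4 were on the chromosome of mycb and 1 lay within 100 genes of it. Of all 13702 placed genes, 125 lay within 100 genes of mycb. The share of placed genes on its chromosome was not counted, so the 4 have no background beside them.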
